A study of Mus musculus with 12 samples.

Results

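The 28 genes described here encode the enzymes that make cholesterol from acetyl-CoA, the proteins that control the transcription factor SREBP2, and 1 sterol carrier. They were chosen by function, as a list of gene symbols, out of 24465 genes in the deposited tables. All 28 had a row in the table of untreated libraries, which lists 22896 genes, and in the table of TNF-treated libraries, which lists 21437. Total RNA of mouse bone marrow-derived macrophages, cells grown in culture from marrow progenitors, was sequenced in 12 libraries. The 4 groups of 3 libraries were Klf6fl/fl:Lyz2cre cells exposed for 6 h to 10 ng/ml of the inflammatory cytokine TNF, Lyz2cre cells given the same TNF, untreated Klf6fl/fl:Lyz2cre cells and untreated Lyz2cre cells. All 4 groups carry the Lyz2cre allele, in which Cre recombinase is made from the lysozyme 2 gene that myeloid cells use. Klf6fl/fl:Lyz2cre cells also carry floxed copies of Klf6, which encodes a Krüppel-like factor that binds DNA through zinc fingers, and are called Klf6-deleted below. The study asks about KLF6 of macrophages in a disease model of the artery wall, and the 2 genotypes were compared with and without TNF. The strain, sex and age of the mice, the growth factor that drove marrow cells to macrophages and the animal behind each library are not stated in the labels, so the p-values speak only of the spread among these libraries, which may be technical.

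Cells make cholesterol by condensing acetyl-CoA units into mevalonate, building isoprenoids and squalene from it, closing squalene into lanosterol, and trimming lanosterol to cholesterol. SREBP2, encoded by Srebf2, is held in the endoplasmic reticulum by SCAP and the INSIG proteins when sterols are plentiful. When sterols run low, SCAP carries SREBP2 to the Golgi, where the proteases encoded by Mbtps1 and Mbtps2 cut free its transcription factor domain, which turns on most genes of the pathway and its own gene. Macrophages take up cholesterol from lipoproteins and dead cells, and the balance of synthesis, uptake, storage and export is a central theme of research on atherosclerotic foam cells.

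SREBP2 binds sterol regulatory elements and works with the factors NF-Y and Sp1, so the promoters were searched for such motifs. RefSeq promoters, 250 bases before to 50 bases after the gene start on GRCm38.p6, were matched for 24 of the 28 genes. Fdft1, Stard4, Sqle and Fdps had no entry. The sterol regulatory element core TCACNCCAC was found, on both strands, in 1 of 24 promoters, that of Hmgcs1, and in 1.24% of all 32851 promoters. The shorter core CACNCCAC, which every match of the longer core contains, was found in 3 of 24, those of Hmgcs1, Acat2 and Insig1, and in 6.24% of all. The NF-Y box CCAAT was in 19 of 24 and 37.4% of all, the GC box GGGCGG in 20 of 24 and 35.7% of all, and the E-box CACGTG in 4 of 24 and 7.15% of all. Promoters are shown for the gene with the longer core, for Srebf2 and Scap, whose transcripts had the lowest p-values with TNF, and for Dhcr7, whose genotype difference had opposite signs with and without TNF. Each is written 5' to 3' on the strand of the gene, here the plus strand for all 4, and capitals mark matches to any of these motifs on either strand. They lie at chr13:119690101-119690400 (Hmgcs1), chr15:82147019-82147318 (Srebf2), chr9:110333038-110333337 (Scap) and chr7:143822917-143823216 (Dhcr7).
Hmgcs1: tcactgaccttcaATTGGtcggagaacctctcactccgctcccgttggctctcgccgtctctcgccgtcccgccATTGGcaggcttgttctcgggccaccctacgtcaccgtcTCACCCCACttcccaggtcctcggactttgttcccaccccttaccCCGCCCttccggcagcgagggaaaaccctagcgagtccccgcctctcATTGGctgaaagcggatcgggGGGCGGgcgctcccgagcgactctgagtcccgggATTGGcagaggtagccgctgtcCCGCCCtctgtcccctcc
Srebf2: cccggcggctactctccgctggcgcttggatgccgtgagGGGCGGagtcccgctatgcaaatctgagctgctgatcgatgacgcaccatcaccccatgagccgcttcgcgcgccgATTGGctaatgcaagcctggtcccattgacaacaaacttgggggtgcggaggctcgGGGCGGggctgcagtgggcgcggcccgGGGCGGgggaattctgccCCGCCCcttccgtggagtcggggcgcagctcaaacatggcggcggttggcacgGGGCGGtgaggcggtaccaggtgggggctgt
Scap: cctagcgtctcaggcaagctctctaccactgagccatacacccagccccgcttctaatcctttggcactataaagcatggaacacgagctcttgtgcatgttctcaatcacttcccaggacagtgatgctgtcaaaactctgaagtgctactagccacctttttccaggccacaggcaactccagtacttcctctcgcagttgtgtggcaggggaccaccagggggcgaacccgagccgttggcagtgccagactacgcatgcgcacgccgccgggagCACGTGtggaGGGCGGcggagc
Dhcr7: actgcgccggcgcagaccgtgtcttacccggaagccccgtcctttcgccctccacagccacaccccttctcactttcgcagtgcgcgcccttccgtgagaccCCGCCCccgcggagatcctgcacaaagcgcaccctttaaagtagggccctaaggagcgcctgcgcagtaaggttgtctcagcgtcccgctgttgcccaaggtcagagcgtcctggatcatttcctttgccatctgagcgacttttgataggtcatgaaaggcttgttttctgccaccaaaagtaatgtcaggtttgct
In the Hmgcs1 promoter the longer core begins 137 bases before the gene start, and 4 CCAAT boxes and 3 GC boxes lie around it. The Srebf2 window holds 1 CCAAT box and 5 GC boxes, the Scap window 1 GC box and 1 E-box, both after the gene start, and the Dhcr7 window 1 GC box. A match describes the letters only, and the absence of one says nothing of a factor's binding.

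Between 16.9 and 23.4 M reads per library were counted on genes. Klf6 itself had 4211, 4133 and 4139.9 normalized counts in Klf6-deleted libraries with TNF, against 7622, 7155 and 7564 in Lyz2cre libraries with TNF. Untreated Klf6-deleted libraries had 7004, 7405 and 6894 normalized counts, against 10055, 9984 and 10315 in untreated Lyz2cre libraries. Klf6 was thus lower in every Klf6-deleted library of either table, with log2 changes of -0.84 ± 0.04 with TNF and -0.51 ± 0.04 untreated (SE, limma), and values per gene do not tell its deleted exons from the others. Values below are the authors' normalized counts, which were scaled separately in the untreated and TNF tables. Genotypes were compared within a table by limma on log2(value + 1), and a gene is called higher or lower at an adjusted p below 0.05, adjusted over all genes tested. Scaling to total reads in place of the deposited scaling raised the median change of all genes by 0.33 log2 with TNF and by 0.13 log2 untreated, and raised the share of higher genes among those called to 80.4% with TNF, against 46.2%, and to 68.0% untreated, against 48.5%. Stromal and cell cycle markers were higher, and most macrophage markers lower, in the Klf6-deleted libraries of both tables, with values given at the end, and their part in the differences was not tested. Directions below are relative to the deposited scaling, and each call that ended under the other scaling is named.

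With TNF, 27 of the 28 genes passed the filter of 1 CPM (reads scaled to the library total) in at least 3 libraries. Of these, 3 were higher in Klf6-deleted cells (Mvd, Sqle and Dhcr7), 10 were lower (Hmgcs1, Idi1, Ggps1, Cyp51, Msmo1, Nsdhl, Hsd17b7, Sc5d, Srebf2 and Scap) and 14 did not pass the test. Over all 11717 genes tested with TNF, 57.3% were called, 26.5% as higher and 30.8% as lower. Untreated, all 28 passed the filter, and 3 were higher in Klf6-deleted cells (Fdft1, Sqle and Insig2), 15 were lower (Acly, Hmgcs1, Mvk, Pmvk, Fdps, Ggps1, Tm7sf2, Lbr, Ebp, Sc5d, Dhcr7, Srebf2, Scap, Insig1 and Stard4) and 10 did not pass. Fdps passed the filter only through the Lyz2cre libraries, so its place among the lower genes is in part fixed by the filter. Among the 12715 genes tested untreated, 56.9% were called, 27.6% as higher and 29.3% as lower. The share of the pathway called in either direction was thus close to that of all genes, and the split was towards lower. The median log2 change was -0.17 over the pathway and -0.01 over all genes with TNF, and -0.16 and -0.01 untreated. Scaled to total reads, the counts were 11 higher and 6 lower with TNF, and 6 higher and 10 lower untreated. Of all genes tested, that scaling called 7038 higher and 1716 lower with TNF, and 5121 higher and 2408 lower untreated. Its median log2 change was 0.16 over the pathway and 0.32 over all genes with TNF, and -0.03 and 0.12 untreated. The genes that scaling to total reads brought in as higher were Acly, Fdft1, Lss, Lbr, Insig1, Insig2, Mbtps1 and Mbtps2 with TNF (Acly at 0.34 log2 and Fdft1 at 0.37 log2) and Acat2, Lss and Mbtps2 untreated. Leaving out 1 library at a time, the count of higher genes with TNF was 5 without Lyz2cre library 2, and untreated it was 1 without Lyz2cre library 2 or Klf6-deleted library 1.

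**Figure D1:**
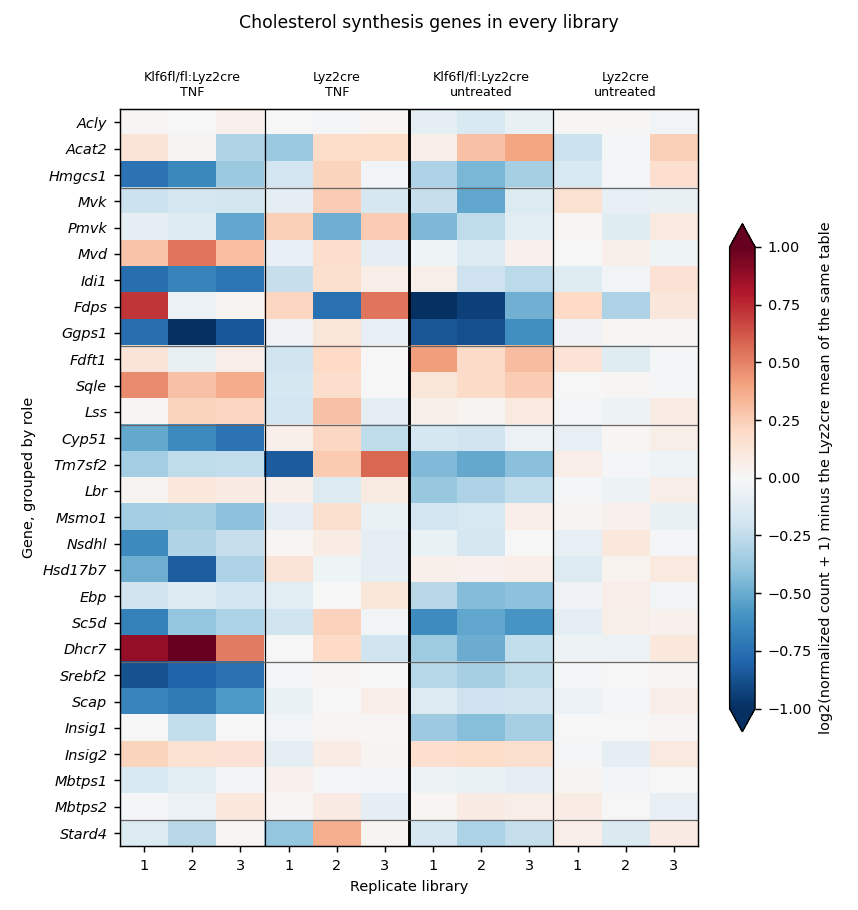
Each cell is log2(normalized count + 1) of 1 gene in 1 library minus the Lyz2cre mean of the same table, blue for lower and red for higher, with colours capped at 1 on either side and horizontal lines between roles. By the deposited scaling Srebf2, Scap and Ggps1 were lower in all 6 Klf6-deleted libraries, and Dhcr7 was higher in the 3 with TNF and lower in the 3 untreated.

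The 3 genes that feed carbon into the pathway are Acly, which makes cytosolic acetyl-CoA from citrate, Acat2, which joins acetyl-CoA units, and Hmgcs1, which makes HMG-CoA. Hmgcs1 had 462, 495 and 598 normalized counts in Klf6-deleted libraries with TNF, against 676, 903 and 757 in Lyz2cre libraries with TNF. Untreated, it had 742, 671 and 729 in Klf6-deleted libraries, against 828, 908 and 1034 in Lyz2cre libraries. By these counts the groups did not overlap in either table: Hmgcs1 was lower, with log2 changes of -0.58 ± 0.11 with TNF (limma, adjusted p = 0.000195) and -0.37 ± 0.07 untreated (adjusted p = 0.000308). Scaled to total reads the groups with TNF overlapped. Both calls held under that scaling, at -0.26 log2 with TNF (adjusted p = 0.0398) and -0.23 log2 untreated (adjusted p = 0.0113). An antisense gene on the opposite strand, Gm48342, overlaps 12.1% of the Hmgcs1 exon bases, and whether the counting used the strand is not given. Acly averaged 2935 ± 45.3 in Klf6-deleted and 2900 ± 30.9 in Lyz2cre libraries with TNF (SD, n = 3 each), which did not pass the test (adjusted p = 0.753). In the untreated table Acly had 3588, 3426 and 3609.6 in Klf6-deleted libraries and 3848, 3837 and 3747 in Lyz2cre libraries, lower at a log2 change of -0.11 ± 0.04 (adjusted p = 0.0223). That call was lost without Lyz2cre library 1 or 2 or Klf6-deleted library 2 (adjusted p = 0.0546 to 0.103), and scaled to total reads the change was 0.03. Acat2 did not pass in either table, was called higher untreated without Lyz2cre library 3 (adjusted p = 0.038) or scaled to total reads (0.39 log2, adjusted p = 0.0236), and its reads may be shared with a near-identical neighbour, Acat3.

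Mvk, Pmvk and Mvd turn mevalonate into isopentenyl diphosphate, Idi1 isomerizes it, and Fdps and Ggps1 join such units into farnesyl and geranylgeranyl diphosphate, lipids that anchor small GTPases in membranes. Ggps1 was the member of this group with the lowest adjusted p in both tables. It had 297, 246 and 279 normalized counts in Klf6-deleted libraries with TNF, against 489, 546 and 476 in Lyz2cre libraries with TNF. Without TNF, Klf6-deleted libraries had 303, 298 and 358 of them, against 535, 557 and 555 in Lyz2cre libraries. In both tables the Klf6-deleted range ended below where the Lyz2cre range began, and the changes of -0.88 ± 0.10 log2 with TNF (limma, adjusted p = 8.59e-07) and -0.78 ± 0.08 log2 untreated (adjusted p = 1.89e-07) were both called. Idi1 had 89.7, 95.4 and 91.4 in Klf6-deleted libraries with TNF, against 129, 169.9 and 159 in Lyz2cre libraries with TNF, without overlap, a log2 change of -0.71 ± 0.15 (adjusted p = 0.000688). Untreated Idi1 averaged 143 ± 17.9 in Klf6-deleted and 157 ± 15.1 in Lyz2cre libraries and did not pass (adjusted p = 0.391). Idi1 lies 3.02 Mb and Ggps1 8.18 Mb from Klf6 on chromosome 13 (GRCm38), a region that stays linked to the floxed allele in crosses, and the part of linked sequence in these differences was not tested.

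Mvd went the other way. It had 461, 547 and 466 normalized counts in Klf6-deleted libraries with TNF, against 357, 427 and 353 in Lyz2cre libraries with TNF, higher by 0.37 ± 0.10 log2 without overlap (limma, adjusted p = 0.00385), and it averaged 246 ± 15.2 in Klf6-deleted and 253 ± 8.25 in Lyz2cre libraries untreated (adjusted p = 0.719). Mvk had 238, 194 and 254 in untreated Klf6-deleted libraries, against 311, 264 and 266 in untreated Lyz2cre libraries (-0.30 ± 0.11 log2, adjusted p = 0.0326). Pmvk had 184, 210.3 and 234 in untreated Klf6-deleted libraries, against 255, 231 and 269 in untreated Lyz2cre libraries, with 1 Klf6-deleted library inside the Lyz2cre range (-0.27 ± 0.11 log2, adjusted p = 0.0482). Both were called lower untreated, and both calls were lost under scaling to total reads (adjusted p = 0.225 for Mvk and 0.311 for Pmvk). The Mvk call was also lost without Lyz2cre library 1 (adjusted p = 0.15) or Klf6-deleted library 2 (adjusted p = 0.192), and the Pmvk call without Lyz2cre library 1 or 3 or Klf6-deleted library 1 or 2 (adjusted p = 0.0862 to 0.224). With TNF neither passed the test, although Pmvk was called lower without Lyz2cre library 2 (adjusted p = 0.0177). Fdps was counted at the edge of detection, at 10.8, 16.9 and 23.5 in untreated Klf6-deleted libraries and 38.3, 26.6 and 36.1 in untreated Lyz2cre libraries, a log2 change of -0.98 ± 0.34 (adjusted p = 0.0191). By CPM it had 0.57, 0.90 and 1.24 in untreated Klf6-deleted libraries, against 1.85, 1.27 and 1.74 in untreated Lyz2cre libraries. Fdps passed the filter only through the Lyz2cre libraries, where it was higher, so its call as lower is in part fixed by the filter. Its call was lost without Lyz2cre library 1 or 3 or Klf6-deleted library 1 (adjusted p = 0.0568 to 0.0986). A predicted gene on the same strand, Gm43738, overlaps 26.7% of the Fdps exon bases and had no values of its own in either treatment. Reads may be shared, so the Fdps level is uncertain. With TNF, Fdps had 13.1, 7.3 and 7.8 in Klf6-deleted libraries and 9.0, 4.1 and 11.5 in Lyz2cre libraries, below the filter, and was not tested.

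Fdft1 joins farnesyl units into squalene, Sqle oxidizes squalene in a rate-controlling step, and Lss closes the ring to lanosterol. None of the 3 was called lower in either table. Sqle had 502, 444 and 469 normalized counts in Klf6-deleted libraries with TNF, against 320.3, 409.7 and 361 in Lyz2cre libraries with TNF. Untreated Klf6-deleted libraries had 944, 989.9 and 1038 of them, against 871, 877 and 856 in Lyz2cre libraries. Sqle was above the Lyz2cre range in every Klf6-deleted library, by 0.38 ± 0.10 log2 with TNF (limma, adjusted p = 0.00338) and 0.19 ± 0.05 log2 untreated (adjusted p = 0.0063), and both calls held when scaled to total reads. Fdft1 had 272, 231 and 252 in untreated Klf6-deleted libraries, against 223, 186 and 200.2 in untreated Lyz2cre libraries, higher by 0.31 ± 0.11 log2 (adjusted p = 0.0215). The Fdft1 groups did not overlap, but the call was lost without Lyz2cre library 2 or 3 or Klf6-deleted library 1 (adjusted p = 0.0514 to 0.104). Ctsb, a lysosomal protease gene on the opposite strand, overlaps 18.3% of the Fdft1 exon bases. With TNF, Fdft1 had 304, 264 and 292 in Klf6-deleted libraries and 243, 319 and 277 in Lyz2cre libraries, which overlapped and did not pass (adjusted p = 0.776), and Lss did not pass in either table. Lss with TNF was called higher without Lyz2cre library 2 (adjusted p = 0.048), and scaled to total reads it was called higher in both tables, at 0.48 log2 with TNF and 0.20 log2 untreated. Summed over the 3 genes, squalene-to-lanosterol transcripts took 59.3 to 63.0 CPM in Klf6-deleted libraries with TNF, against 36.7 to 49.7 in Lyz2cre libraries with TNF, and 86.4 to 90.9 in untreated Klf6-deleted libraries, against 69.6 to 72.3 in untreated Lyz2cre libraries. By the deposited values the sums with TNF overlapped, at 1011 ± 32.0 in Klf6-deleted and 874 ± 124 in Lyz2cre libraries (SD, n = 3 each), where Lyz2cre library 2 at 1008 was above 1 Klf6-deleted library, and the ratio of the means was 1.45 by CPM and 1.16 by the deposited values. Untreated the sums were apart by both, with ratios of 1.24 and 1.13.

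**Figure D2:**
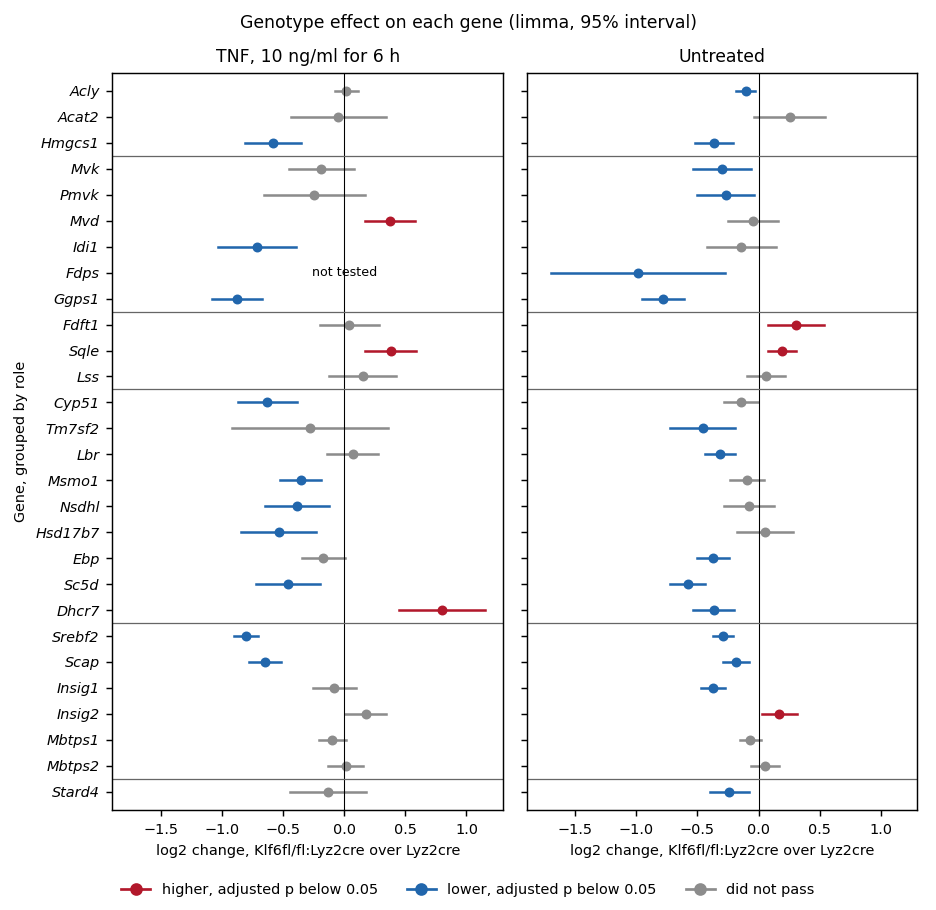
Points are limma log2 changes, Klf6-deleted over Lyz2cre, with 95% intervals, for each gene grouped by role, with TNF on the left and untreated on the right. By the deposited scaling Sqle lay above 0 in both panels, Ggps1, Hmgcs1, Sc5d, Srebf2 and Scap below 0 in both, and Dhcr7 on opposite sides.

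The 9 genes that trim lanosterol to cholesterol split by comparison. With TNF, 5 were lower in Klf6-deleted cells (Cyp51, Msmo1, Nsdhl, Hsd17b7 and Sc5d) and 1 was higher (Dhcr7), and untreated 5 were lower (Tm7sf2, Lbr, Ebp, Sc5d and Dhcr7) and none was higher. Over all genes tested, 30.8% were lower and 26.5% higher with TNF, and 29.3% lower and 27.6% higher untreated. Cyp51, the lanosterol demethylase, had 307, 283 and 262 normalized counts in Klf6-deleted libraries with TNF, against 455, 508 and 368 in Lyz2cre libraries with TNF. The groups did not overlap, and Cyp51 was lower, with a log2 change of -0.63 ± 0.11 (limma, adjusted p = 0.000174). Untreated it averaged 582 ± 30.5 in Klf6-deleted and 642 ± 31.5 in Lyz2cre libraries and missed the threshold (adjusted p = 0.0804), though it was called lower without Lyz2cre library 1 (adjusted p = 0.0477) or Klf6-deleted library 3 (adjusted p = 0.0439). Msmo1, Nsdhl and Hsd17b7 act together to remove methyl groups from the sterol ring. With TNF, Msmo1 had 513, 516 and 488 in Klf6-deleted libraries, against 608, 723 and 620.3 in Lyz2cre libraries (-0.36 ± 0.08 log2, adjusted p = 0.0012). Nsdhl had 169, 214 and 224 in Klf6-deleted libraries with TNF, against 267, 276 and 247 in Lyz2cre libraries with TNF (-0.39 ± 0.12 log2, adjusted p = 0.0125). Hsd17b7 had 138, 109 and 156 in Klf6-deleted libraries with TNF, against 212, 188 and 182 in Lyz2cre libraries with TNF (-0.54 ± 0.15 log2, adjusted p = 0.00486). In all 3 the Klf6-deleted libraries lay below the Lyz2cre libraries, and all 3 calls ended under scaling to total reads (adjusted p = 0.743, 0.66 and 0.194 in the same order). The Nsdhl call was also lost without Klf6-deleted library 1 (adjusted p = 0.0747). None of these 3 genes passed untreated, except Msmo1 as lower without Klf6-deleted library 3 (adjusted p = 0.0215).

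Sc5d, which puts in a ring double bond late in the pathway, was lower in both tables. It had 217, 265 and 278 normalized counts in Klf6-deleted libraries with TNF, against 301, 408 and 339 in Lyz2cre libraries with TNF (-0.46 ± 0.12 log2, limma, adjusted p = 0.00483). Untreated Klf6-deleted libraries had 448, 485 and 462, against 648, 722 and 716 in Lyz2cre libraries (-0.58 ± 0.07 log2, adjusted p = 8.46e-07). The groups were apart in both tables, and scaled to total reads the untreated call held and the call with TNF did not (adjusted p = 0.345). Dhcr7, which makes cholesterol from 7-dehydrocholesterol, had 163, 177 and 127 in Klf6-deleted libraries with TNF, against 88.5, 102 and 76.8 in Lyz2cre libraries with TNF, 1.74-fold higher (0.80 ± 0.17 log2, adjusted p = 0.000659). In untreated libraries it had 436, 396 and 470.1 in Klf6-deleted cells, against 541, 538 and 600.5 in Lyz2cre cells, 1.29-fold lower (-0.37 ± 0.08 log2, adjusted p = 0.000609). All 3 Klf6-deleted libraries were above the Lyz2cre range with TNF and all 3 were below it untreated, and both calls held under scaling to total reads. Ebp, the sterol isomerase, had 641, 575 and 585 in untreated Klf6-deleted libraries, against 757, 812 and 763 in untreated Lyz2cre libraries (-0.37 ± 0.06 log2, adjusted p = 6.51e-05). Lbr, a nuclear envelope protein that is also a sterol reductase, had 736, 774 and 808 in untreated Klf6-deleted libraries, against 949.8, 929 and 1003 in untreated Lyz2cre libraries (-0.31 ± 0.06 log2, adjusted p = 0.00014). Tm7sf2, the other sterol reductase of that step, had 118, 112 and 119 in untreated Klf6-deleted libraries, against 167, 157 and 155 in untreated Lyz2cre libraries (-0.46 ± 0.13 log2, adjusted p = 0.00447). None of the groups of these 3 genes overlapped untreated, and Vps51 on the same strand overlaps 12.1% of the Tm7sf2 exon bases. With TNF the 3 did not pass, and leaving out Lyz2cre library 1, whose Tm7sf2 count of 28.8 was below the other two at 62.8 and 78.0, brought in calls as lower for Tm7sf2 (-0.70 log2, adjusted p = 0.019) and Ebp (adjusted p = 0.0453). Lbr with TNF was called higher when scaled to total reads (0.40 log2).

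Srebf2 and its escort Scap were lower in Klf6-deleted cells in both tables. Srebf2 had 2208, 2328 and 2415 normalized counts in Klf6-deleted libraries with TNF, against 4011, 4096 and 4031 in Lyz2cre libraries with TNF. Without TNF it had 3233, 3128 and 3299 in Klf6-deleted libraries, against 3906, 3945 and 3969 in Lyz2cre libraries. No Klf6-deleted library reached the Lyz2cre range, and the change was 1.75-fold with TNF (-0.81 ± 0.05 log2, limma, adjusted p = 3.15e-10) and 1.22-fold untreated (-0.29 ± 0.04 log2, adjusted p = 2.15e-06). Both Srebf2 calls held under each of 7 other settings and with any 1 library left out. Scap had 824, 798 and 874 in Klf6-deleted libraries with TNF, against 1243, 1304 and 1369 in Lyz2cre libraries with TNF (-0.65 ± 0.06 log2, adjusted p = 1.61e-07). Untreated Scap had 1178, 1123 and 1129 in Klf6-deleted libraries, against 1249.6, 1287 and 1359.6 in Lyz2cre libraries (-0.18 ± 0.05 log2, adjusted p = 0.0046). The Scap groups were apart in both tables, but the untreated call ended under scaling to total reads (-0.05 log2, adjusted p = 0.397), and 5830462I19Rik on the opposite strand overlaps 13.2% of its exon bases.

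The retention proteins differed from each other. Insig1, itself an SREBP target, had 1372, 1312 and 1396 normalized counts in untreated Klf6-deleted libraries, against 1754, 1757 and 1771 in untreated Lyz2cre libraries, lower without overlap, a log2 change of -0.37 ± 0.04 (limma, adjusted p = 1.07e-06). With TNF it had 525, 443 and 525 in Klf6-deleted libraries and 516, 531 and 529 in Lyz2cre libraries, which overlapped and did not pass (adjusted p = 0.411). Scaled to total reads, Insig1 with TNF was called higher (0.24 log2, adjusted p = 0.0155). Insig2 had 580.2, 586 and 576 in untreated Klf6-deleted libraries, against 513, 484 and 553 in untreated Lyz2cre libraries, higher by 0.17 ± 0.07 log2 (adjusted p = 0.043). Leaving out any 1 untreated library except Lyz2cre library 3 ended that call (adjusted p = 0.0734 to 0.159). With TNF, Insig2 averaged 521 ± 14.3 in Klf6-deleted and 462 ± 27.3 in Lyz2cre libraries, without overlap and missed the threshold (adjusted p = 0.0682). It was called higher there without Lyz2cre library 2 (adjusted p = 0.0437), by edgeR (adjusted p = 0.0314) and scaled to total reads (0.50 log2). The proteases did not pass in either table: with TNF, Mbtps1 averaged 1653 ± 72.8 in Klf6-deleted and 1768 ± 47.1 in Lyz2cre libraries, and Mbtps2 917 ± 54.0 in Klf6-deleted and 911 ± 53.2 in Lyz2cre libraries. Yy2 on the same strand overlaps 28.4% of the Mbtps2 exon bases, the largest share among the 28 genes, and had no values of its own in either treatment. Reads may be shared, so the Mbtps2 level is uncertain. Scaled to total reads both were called higher with TNF, Mbtps1 at 0.23 log2 and Mbtps2 at 0.34 log2, and Mbtps2 also untreated (0.19 log2). Stard4, which carries sterol between membranes in the cytosol, had 537, 482 and 511 in untreated Klf6-deleted libraries, against 630.3, 544 and 637 in untreated Lyz2cre libraries (-0.24 ± 0.08 log2, adjusted p = 0.0113), and did not pass with TNF, where it was called lower only without Lyz2cre library 1 (adjusted p = 0.038). The untreated Stard4 call ended under scaling to total reads (adjusted p = 0.242) and without Lyz2cre library 1 or 3 or Klf6-deleted library 2 (adjusted p = 0.0525 to 0.0611).

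**Figure D3:**
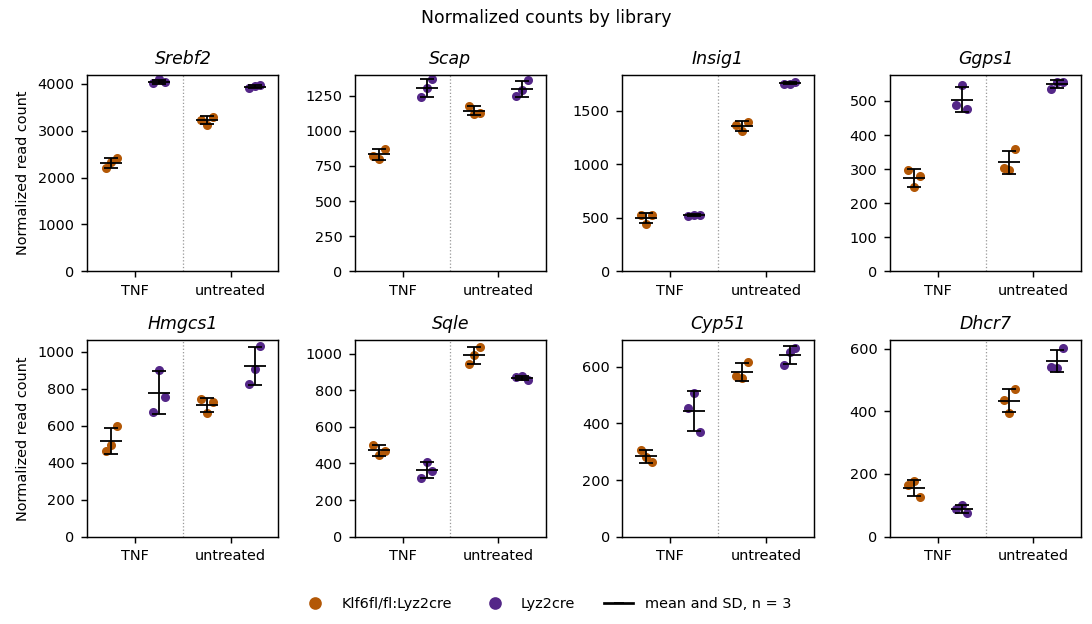
Points are normalized read counts of single libraries (3 per group) with mean and SD, Klf6-deleted in orange and Lyz2cre in purple, TNF left of untreated in each panel, and each treatment scaled in its own table. Srebf2 with TNF had 2208 to 2415 in Klf6-deleted libraries, below the 4011 to 4096 of Lyz2cre libraries, and Dhcr7 crossed over between the treatments.

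Whether the genotype difference itself changed with TNF was tested by limma as a contrast of the changes within each table. Of 27 genes tested, 4 had a higher change with TNF than untreated (Mvd, Lbr, Dhcr7 and Insig1), 5 a lower one (Idi1, Cyp51, Hsd17b7, Srebf2 and Scap) and 18 did not pass. Msmo1 missed the threshold narrowly (contrast -0.26, adjusted p = 0.0503). It was called lower by edgeR, by DESeq2, with a pseudocount of 8 and with a filter at 5 CPM, and without untreated Klf6-deleted library 1 or 2 or Lyz2cre TNF library 1 or 3, while its adjusted p ranged from 0.0203 to 0.626 over all the alternatives, the highest when scaled to total reads. Over all 11425 genes tested, 52.2% were called, 26.5% as higher and 25.7% as lower. The median of the contrast was 0.00 over the pathway and 0.02 over all genes. Dhcr7 had the largest contrast among the called genes, 1.16 ± 0.18 log2 (adjusted p = 1.99e-05), from a change of 0.80 with TNF and -0.37 untreated. Srebf2 had a contrast of -0.51 ± 0.06 log2 (adjusted p = 2.14e-07) and Scap one of -0.47 ± 0.08 log2 (adjusted p = 4.56e-05), so both were further below Lyz2cre cells with TNF than untreated. The changes of Hmgcs1 (contrast -0.22, adjusted p = 0.225), Ggps1 (-0.10, adjusted p = 0.56), Sc5d (0.12, adjusted p = 0.525) and Fdft1 (-0.27, adjusted p = 0.174) were not shown to differ between the treatments. The contrast of Sqle (0.19, adjusted p = 0.167) did not pass either, but it was called higher when scaled to total reads (0.38, adjusted p = 0.00837) and without Lyz2cre TNF library 2. That of Ebp (0.20, adjusted p = 0.11) was called higher when scaled to total reads (0.40, adjusted p = 0.00251) and without Lyz2cre TNF library 3. Scaling to total reads raised the all-gene median of the contrast by 0.19 log2, left 2 genes lower (Srebf2 and Scap) and 8 higher (Acly, Mvd, Sqle, Lbr, Ebp, Dhcr7, Insig1 and Mbtps1), and ended the calls of Idi1 (adjusted p = 0.111), Cyp51 (adjusted p = 0.085) and Hsd17b7 (adjusted p = 0.0713). Under that scaling 4780 of all 11425 genes were called higher and 1888 lower. The Idi1 call was also lost without untreated Klf6-deleted library 1, Lyz2cre TNF library 2 or untreated Lyz2cre library 1 (adjusted p = 0.0525 to 0.068), and the Mvd call without Klf6-deleted TNF library 2 (adjusted p = 0.052).

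Levels with and without TNF were set side by side with no test, since the treatments were in separately scaled tables. CPM values were used, with a joint median-of-ratios scaling of the 12 libraries, chosen after seeing the data, beside them. In Klf6-deleted cells 18 of the 28 genes were lower in every TNF library than in every untreated library by CPM and 2 were higher, and in Lyz2cre cells 17 were lower and 3 higher. All genes listed for both treatments and reaching 1 CPM in all 3 TNF or all 3 untreated libraries of a genotype were counted likewise. Of these, 42.7% were lower in every TNF library and 29.1% higher in Klf6-deleted cells, and 55.4% lower and 26.6% higher in Lyz2cre cells. A gene scarce in 1 treatment could enter through the other alone, and the 28 genes were counted without this filter. With the joint scaling the pathway counts were 17 lower and 3 higher in Klf6-deleted cells, against 38.8% and 34.6% of all genes. In Lyz2cre cells they were 12 lower and 8 higher under that scaling, against 40.7% and 40.0% of all genes. In both genotypes and under the deposited, total-read and joint scalings, 10 genes were lower in every TNF library (Pmvk, Sqle, Lss, Tm7sf2, Lbr, Msmo1, Ebp, Sc5d, Dhcr7 and Insig1) and 1, Mvd, was higher. The share of all genes that met all these conditions was not computed, so the 10 are not read as a trait of the pathway. Marker sums also moved between the same libraries. The ratio of summed CPM, TNF over untreated, was 0.814 in Klf6-deleted and 0.758 in Lyz2cre cells over the 28 genes. It was 0.0683 in Klf6-deleted and 0.222 in Lyz2cre cells for stromal markers, 0.107 in both for granulocyte and monocyte markers, and 0.342 in Klf6-deleted and 0.438 in Lyz2cre cells for cell cycle genes. Macrophage markers had ratios of 1.26 in Klf6-deleted and 0.812 in Lyz2cre cells, and endothelial markers 0.797 in Klf6-deleted and 2.78 in Lyz2cre cells. The endothelial sums and the granulocyte and monocyte sums took 7 genes each with TNF and 8 each untreated. The part of all these markers in the levels with and without TNF was not tested.

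Insig1 took 31.9, 26.9 and 31.9 CPM in Klf6-deleted libraries with TNF, against 72.2, 69.6 and 73.5 in untreated Klf6-deleted libraries, and 24.9, 26.2 and 25.3 in Lyz2cre libraries with TNF, against 84.8, 83.9 and 85.4 in untreated Lyz2cre libraries. The ratio of means, TNF over untreated, was 0.422 in Klf6-deleted and 0.301 in Lyz2cre cells. Dhcr7 had ratios of 0.414 in Klf6-deleted and 0.161 in Lyz2cre cells, with 9.94, 10.8 and 7.74 CPM in Klf6-deleted libraries with TNF and 4.27, 5.03 and 3.68 in Lyz2cre libraries with TNF. The TNF libraries of these genes lay far below the untreated ones. Lbr had ratios of 0.441 in Klf6-deleted and 0.296 in Lyz2cre cells, Tm7sf2 of 0.425 and 0.356, and Sqle of 0.548 and 0.422, in the same order. Mvd had 28.1, 33.3 and 28.3 CPM in Klf6-deleted libraries with TNF, against 12.9, 12.2 and 13.7 in untreated ones, and 17.2, 21.1 and 16.9 in Lyz2cre libraries with TNF, against 12.2, 12.5 and 11.8 in untreated ones. Every TNF library was above the untreated ones of its genotype, with ratios of 2.31 in Klf6-deleted and 1.51 in Lyz2cre cells. Srebf2 had ratios of 0.829 in Klf6-deleted and 1.03 in Lyz2cre cells by CPM, and of 0.868 and 1.27 by the joint scaling. Its TNF libraries were below the untreated ones in Klf6-deleted cells and above them in Lyz2cre cells under both.

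**Figure D4:**
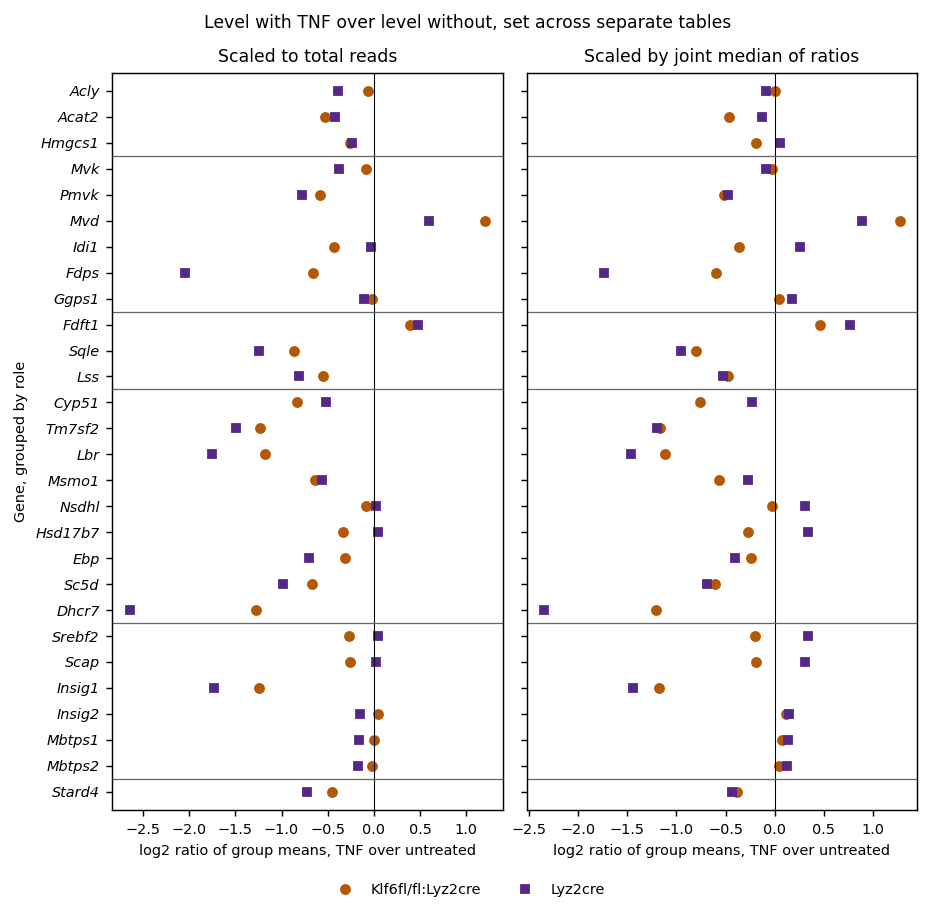
Points are log2 ratios of group means, TNF over untreated, for each gene, with circles for Klf6-deleted and squares for Lyz2cre cells, scaled to total reads on the left and by the joint median of ratios on the right, with no test. Dhcr7, Lbr, Insig1 and Tm7sf2 lie furthest left with TNF apart from the weakly counted Fdps, and Mvd furthest right in both panels.

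Levels of different genes were compared as CPM per kilobase of exon. In Lyz2cre cells with TNF, Srebf2 at 26.9 to 28.1 and Acly at 26.4 to 26.9 were the highest of the 28 genes and touched, while in Klf6-deleted cells with TNF Acly at 33.3 to 34.4 stood above Srebf2 at 18.7 to 20.4, followed by Mvd at 15.1 to 17.9. Untreated Klf6-deleted cells had Acly at 34.4 to 36.0, Srebf2 at 23.1 to 24.2 and Insig1 at 22.5 to 23.8, where Srebf2 and Insig1 overlapped. Untreated Lyz2cre cells had Acly at 34.2 to 35.2, Insig1 at 27.1 to 27.6, Srebf2 at 26.2 to 26.7 and Ebp at 15.8 to 16.8, with no overlap between neighbours, followed by Lbr at 9.32 to 10.2 and Hmgcs1 at 8.72 to 10.9, which overlapped. Fdps was the lowest in every group, at means of 0.135 in Klf6-deleted and 0.0937 in Lyz2cre cells with TNF. Summed over the 21 enzymes, the pathway took 485 to 493 CPM in Klf6-deleted libraries with TNF, against 407 to 464 in Lyz2cre libraries with TNF, and 594 to 635 in untreated Klf6-deleted libraries, against 624 to 640 in untreated Lyz2cre libraries. The ratio of these sums with TNF, Klf6-deleted over Lyz2cre, was 1.14 by CPM and 0.906 by the deposited values, so its direction depends on the scaling.

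Genes linked to the pathway were read from further lists. Of 16 other genes that SREBP factors are known to turn on or act with, 10 were higher and 2 lower in Klf6-deleted cells with TNF (13 and 1 scaled to total reads), and 4 were higher and 5 lower untreated (7 and 5 scaled to total reads). Scaled to total reads, 7038 of all 11717 genes tested were higher and 1716 lower with TNF, and 5121 of 12715 were higher and 2408 lower untreated. With the deposited scaling, 26.5% of all genes tested were higher and 30.8% lower with TNF, and 27.6% higher and 29.3% lower untreated. The untreated counts of this list were thus near those of all genes with the deposited scaling. The median log2 change of the list was 0.48 with TNF and 0.03 untreated. Lpin1, a phosphatidate phosphatase, changed most in both tables: it averaged 109 ± 18.3 normalized counts in Klf6-deleted and 36.4 ± 15.6 in Lyz2cre libraries with TNF (1.63 log2, limma, adjusted p = 6.42e-05), and 474 ± 47.6 in Klf6-deleted and 1228 ± 35.6 in Lyz2cre libraries untreated (-1.38 log2, adjusted p = 7.21e-12). Npc2, which carries cholesterol inside lysosomes, averaged 20014 ± 864 in Klf6-deleted and 42826 ± 3295 in Lyz2cre libraries with TNF (-1.10 log2, adjusted p = 2.66e-11). The fatty acid desaturase gene Fads2 was higher in both tables, at 0.83 log2 with TNF (adjusted p = 0.0303, groups overlapping) and 1.25 log2 untreated (adjusted p = 6.9e-05), and its neighbour in the same pathway, Fads1, was lower untreated (1836 ± 51.5 in Klf6-deleted and 2836 ± 60.4 in Lyz2cre libraries, -0.63 log2). Scd1, another desaturase, was higher with TNF (0.78 log2, adjusted p = 0.00147), and Aldoc, a glycolytic aldolase, was higher untreated (0.76 log2, adjusted p = 7.94e-07).

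Of 12 genes of the sterol-regulated degradation of pathway proteins, 1 was higher and 7 were lower with TNF, and 0 were higher and 6 lower untreated. Scaled to total reads these were 6 higher and 2 lower with TNF and 2 higher and 3 lower untreated. Over all genes tested with the deposited scaling, 30.8% were lower and 26.5% higher with TNF, and 29.3% lower and 27.6% higher untreated. Scaled to total reads, 7038 of 11717 genes were higher and 1716 lower with TNF, and 5121 of 12715 were higher and 2408 lower untreated. These values are also the background for the next list. Rnf139, a sterol-sensing ubiquitin ligase, averaged 509.6 ± 11.8 in Klf6-deleted and 1075 ± 59.7 in Lyz2cre libraries with TNF (-1.07 log2, limma, adjusted p = 8.01e-10). Erlin1, a membrane scaffold protein that binds cholesterol, was lower at -0.51 log2 with TNF (adjusted p = 5.76e-06) and -0.46 log2 untreated (adjusted p = 4.65e-07), and these calls and that of Rnf139 with TNF held when scaled to total reads. Syvn1 and Rnf145, both ubiquitin ligases, were lower with TNF at -0.39 and -0.36 log2, calls that ended when scaled to total reads. Ube2g2, a ubiquitin-conjugating enzyme, was lower untreated at -0.27 log2, and so was Rnf139 at -0.19 log2, whose call ended when scaled to total reads. Of 13 genes that use isoprenoids, 2 were higher and 6 lower with TNF and 1 was higher and 4 lower untreated, and scaled to total reads 5 were higher and 1 lower with TNF and 4 higher and 2 lower untreated. The untreated count of 4 lower of 13 was near the share of all genes. Coq2, an enzyme of ubiquinone synthesis, was the one still lower with TNF (405 ± 36.2 in Klf6-deleted and 827 ± 124 in Lyz2cre libraries, -1.02 log2, adjusted p = 3.01e-07). Fnta, a subunit of protein prenyltransferases, was lower untreated (824 ± 49.2 in Klf6-deleted and 1342 ± 58.1 in Lyz2cre libraries, -0.70 log2, adjusted p = 5.35e-09). Rabggta, which encodes a subunit of the Rab prenyltransferase, was higher with TNF (0.33 log2, adjusted p = 0.00651) and lower untreated (-0.35 log2, adjusted p = 9.05e-05), while Rabggtb, its other subunit gene, was higher untreated (0.37 log2, adjusted p = 0.000186). Pggt1b, a protein prenyltransferase subunit, was lower at -0.44 log2 with TNF and -0.29 log2 untreated, and Zmpste24, a protease that trims prenylated proteins, was lower at -0.32 log2 with TNF, but these calls ended when scaled to total reads.

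Of 7 oxysterol and cholesteryl ester genes, 5 were tested, of which 3 were higher and 2 lower with TNF and 1 was higher and 2 lower untreated. Scaled to total reads the untreated counts were 3 higher and 1 lower, with Soat1 (0.12 log2, adjusted p = 0.00436) and Nceh1 (0.14 log2, adjusted p = 0.000797) brought in as higher, and those with TNF were 3 and 2. Over all genes tested with the deposited scaling, 26.5% were higher and 30.8% lower with TNF, and 27.6% higher and 29.3% lower untreated. Ch25h makes 25-hydroxycholesterol, a sterol that blocks SREBP2 processing. It averaged 136 ± 18.5 normalized counts in Klf6-deleted and 6099 ± 1024 in Lyz2cre libraries with TNF (-5.47 log2, limma, adjusted p = 5.5e-16), and 28.6 ± 8.94 in Klf6-deleted and 5.74 ± 2.37 in Lyz2cre libraries untreated (2.15 log2, adjusted p = 0.000341). Untreated Ch25h was near the floor and passed the filter of 1 CPM only through the Klf6-deleted libraries, so the size of its untreated change is uncertain. Soat1, which esterifies cholesterol for storage, was higher with TNF (6631 ± 256 in Klf6-deleted and 3162 ± 189 in Lyz2cre libraries, 1.07 log2, adjusted p = 1.94e-11). Nceh1, which hydrolyses the esters, was higher with TNF as well (3196 ± 58.1 in Klf6-deleted and 1617 ± 94.4 in Lyz2cre libraries, 0.98 log2, adjusted p = 9e-11). Cyp27a1, which makes 27-hydroxycholesterol, was lower in both tables, at -0.79 log2 with TNF and -1.60 log2 untreated. Lipa, the lysosomal acid lipase, was lower untreated at -0.12 log2 (adjusted p = 0.011), a call that ended when scaled to total reads.

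Markers of other cells moved with genotype as well as with TNF. A marker scarce in 1 genotype could pass the filter of 1 CPM in 3 libraries through the other genotype alone. The counts of tested markers called are thus in part fixed by the filter, while the summed levels were taken without it. Over all genes tested, 26.5% were higher and 30.8% lower with TNF, and 27.6% higher and 29.3% lower untreated. Of 12 stromal markers, 8 of the 9 tested were higher in Klf6-deleted cells with TNF and 10 of the 10 tested untreated, with summed levels of 185 to 211 CPM in Klf6-deleted libraries with TNF, against 26.1 to 40.3 in Lyz2cre libraries with TNF, and of 2751 to 2925 in untreated Klf6-deleted libraries, against 125 to 155 in untreated Lyz2cre libraries. Cell cycle genes were higher in 9 of 10 with TNF and 10 of 10 untreated, summing to 90.7 to 103 in Klf6-deleted and 41.4 to 48.8 in Lyz2cre libraries with TNF, and to 273 to 295 and 98.4 to 107 untreated in the same order. Of 12 macrophage markers, 4 were higher and 7 lower with TNF, and 1 was higher and 11 lower untreated. Their sum was 10736 to 10844 CPM in Klf6-deleted and 11519 to 11631 in Lyz2cre libraries with TNF, and 8351 to 8820 in Klf6-deleted and 14240 to 14292 in Lyz2cre libraries untreated, and all 12 were counted in every group. Of 8 granulocyte and monocyte markers, 1 was higher and 2 lower of 5 tested with TNF, and 5 higher and 2 lower of 7 tested untreated, with sums of 53.0 to 59.2 in Klf6-deleted and 33.3 to 42.6 in Lyz2cre libraries with TNF, and 511 to 539 and 346 to 371 untreated in the same order. Of 8 endothelial markers, 1 was higher and 2 lower of 3 tested with TNF, and 4 of the 4 tested were higher untreated, with sums of 71.2 to 76.5 in Klf6-deleted and 101 to 119.5 in Lyz2cre libraries with TNF, and 86.6 to 97.5 and 38.2 to 43.0 untreated. Emcn and Mpo were at 0 in all 3 Lyz2cre libraries with TNF. Cldn5 and Ly6g had no values in either genotype with TNF. The endothelial sums and the granulocyte and monocyte sums thus took 7 genes each with TNF and 8 each untreated. In bulk RNA, fewer cells of a type and less RNA per cell cannot be told apart, and the part of these cell types and of the cell cycle in the differences of the 28 genes was not tested.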

How the data were processed

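RNA-seq libraries of 12 macrophage samples were analysed from 2 deposited tables, 1 of untreated and 1 of TNF-treated cells. Per the labels' protocols, total RNA was depleted of ribosomal RNA and made into stranded Illumina libraries. The submitters' processing notes list Cufflinks, GRCm39 and mm10 without saying what each was used for. No source used here gives the aligner, counter, annotation or use of strand. The unit of the deposited signal is not stated either. In 10 of the 12 columns the low values were whole multiples of 1 step per library, and in the other 2 the step was too close to 1 to tell from rounding. Dividing by the steps gave whole reads for 100% of values (tolerance 0.001 reads, largest deviation 5.2e-05), so the authors' values were taken as read counts per gene divided by 1 size factor per library, set within each table. All 12 columns were used.

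From these values, log2(value + 1) was fitted by limma 3.58.1 in R 4.3.3, within each table for the genotype and over both for the difference of the genotype effects. Genes needed at least 1 CPM (reads scaled to the library total) in at least 3 libraries, and p-values were adjusted over all genes tested by Benjamini-Hochberg, with calls below 0.05. On the recovered reads, edgeR 4.0.16 called 3428 genes higher and 3279 lower with TNF, and 3662 higher and 3557 lower untreated. DESeq2 1.42.0 called 3024 higher and 3244 lower with TNF, and 3372 higher and 3322 lower untreated. Other alternatives were scaling to total reads, a pseudocount of 8, no filter or at least 5 CPM, a replicate block and leaving out each library. Libraries held 16.9 to 23.4 M reads, which sets a counting error that matters most for Fdps and Tm7sf2. Within a table, Klf6-deleted and Lyz2cre libraries of the same number did not deviate together in every pair (correlations of -0.04 to 0.16 untreated and -0.03 to -0.01 with TNF), so numbers were not taken as pairing of the genotypes. Untreated and TNF libraries of the same number were not compared, so a pairing between treatments was not examined or modelled. The code was tested on simulated data. Ensembl identifiers were matched to symbols for 22867 of 22896 untreated and 21411 of 21437 TNF genes, and exon lengths, overlaps and gene positions came from a GENCODE annotation of GRCm38, whose coordinates were not mixed with those of the files. Python 3.11.15, pandas 2.3.3, scipy 1.17.1, numpy 2.4.6 and matplotlib 3.10.9 were used.

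The 28 genes, the further lists and the tests were chosen with earlier results of these data known. Genes told in full are those called in either genotype comparison or in the difference of effects, and of each further list up to 4 called genes with the largest log2 change per comparison are named, except 1 gene that is not reported here.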

Additional observations from a re-analysis of the deposited data

Results flagged for a closer look

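Over all 11425 genes tested, 52.2% passed limma's test of the genotype change with TNF minus that without TNF. For 9 of the 27 genes of the pathway tested, a smaller share, this difference passed (adjusted over 11425 genes), which is what brought them here. It was 1.16 log2 for Dhcr7 (adjusted p = 1.99e-05), 0.42 for Mvd (adjusted p = 0.0149), 0.38 for Lbr (adjusted p = 0.00468) and 0.29 for Insig1 (adjusted p = 0.0106). It was -0.59 log2 for Hsd17b7 (adjusted p = 0.0113), -0.57 for Idi1 (adjusted p = 0.0208), -0.51 for Srebf2 (adjusted p = 2.14e-07), -0.49 for Cyp51 (adjusted p = 0.00618) and -0.47 for Scap (adjusted p = 4.56e-05). Groups of 3 libraries were not tested for single samples that stand apart.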

How the results depend on the processing

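Scaling to total reads gave 11 higher and 6 lower genes with TNF, 6 higher untreated, and 8 higher and 2 lower for the difference of effects. Over all genes it gave 7038 higher and 1716 lower with TNF, 5121 higher untreated, and 4780 higher and 1888 lower for the difference. With TNF it turned the sign of changes that had not been called: Acat2 (0.28 log2), Mvk (0.14), Pmvk (0.079), Tm7sf2 (0.041), Ebp (0.16), Insig1 (0.24), Mbtps1 (0.23) and Stard4 (0.19). Untreated it turned Acly (0.027), which had been called, and Mvd (0.088), Msmo1 (0.036), Nsdhl (0.055) and Mbtps1 (0.065). The share of higher genes among those called for the difference of effects was 71.7%, against 50.8%.

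Untreated, edgeR and DESeq2 lost the calls of Acly (adjusted p = 0.0569 and 0.0601) and Pmvk (0.0605 and 0.103), DESeq2 those of Mvk (0.0672) and Insig2 (0.0728), and no filter those of Pmvk (0.0601) and Insig2 (0.0607). A pseudocount of 8 and a filter of 5 CPM changed no count of calls by over 1.5 times.

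With 1 library left out, the higher and lower counts ranged from 3 to 5 and 9 to 13 with TNF, 1 to 3 and 11 to 17 untreated, and 3 to 5 and 4 to 6 for the difference. Log2 changes of uncalled genes crossed 0 with TNF for Acat2 (-0.23 to 0.079), Fdft1 (-0.057 to 0.14), Tm7sf2 (-0.70 to 0.0055), Mbtps2 (-0.038 to 0.050) and Stard4 (-0.33 to 0.047), and untreated for Mvd (-0.088 to 0.00085) and Hsd17b7 (-0.016 to 0.10).

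Summed over the 21 enzymes, the Klf6-deleted over Lyz2cre ratio with TNF was 1.14 by CPM, 0.906 by the deposited values and 0.896 by the joint scaling, which was chosen after seeing the data. Untreated it was 0.970, 0.884 and 0.895. The TNF over untreated ratio was 0.800, 0.694 and 0.838 in Klf6-deleted cells, and 0.682 in Lyz2cre cells by CPM and 0.836 jointly. For the 6 SREBP2 control genes the Klf6-deleted over Lyz2cre ratio was 0.937, 0.747 and 0.739 with TNF and 0.965, 0.880 and 0.890 untreated. Their TNF over untreated ratio was 0.837, 0.726 and 0.877 in Klf6-deleted cells, and 0.862 in Lyz2cre cells by CPM and 1.06 jointly. Genes above in every TNF library numbered 2 in Klf6-deleted cells by CPM and 1 by the deposited values, and 3 in Lyz2cre cells by CPM and 8 jointly. The cause of these shifts was not tested.

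With the replicate number within each treatment as a block, the counts stayed at 3 higher and 10 lower with TNF, 3 and 15 untreated, and 4 and 5 for the difference. Read depth limits Fdps most.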
